A study of Mus musculus with 8 samples.

Results

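The genes described here encode the building blocks of desmosomes, the spot-like junctions that rivet neighbouring keratinocytes together. They were named by symbol and not by a cutoff on measured values, but with earlier results of these data known. They are the desmosomal cadherins Dsc2, Dsc3, Dsg2 and Dsg3, the plaque genes Jup, Pkp1, Pkp2, Pkp3 and Dsp, and the membrane protein gene Perp. A transcript cluster, the set of probes that the array assigns to a transcript, was taken for a gene where it was annotated to that gene alone, and the cluster with the highest mean was kept where there were several. This gave 9 of the 10 genes, of 14860 genes measured in this way. Dsp, which encodes desmoplakin, had no such cluster and is not analysed here.

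In a desmosome, desmocollins (Dsc) and desmogleins (Dsg) span the membrane and bind their counterparts on the next cell in a calcium-dependent way. Their tails bind plakoglobin (Jup) and the plakophilins (Pkp) in a dense plaque, and desmoplakin ties that plaque to keratin filaments. In mouse skin Dsc3 and Dsg3 are the cadherins most typical of the lower, proliferating layers, and desmosomes give the epidermis its resistance to mechanical stress.

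RNA came from MK546, a line of epidermal keratinocytes from newborn mice that lack the integrin subunit α3, immortalized with SV40 large T antigen, and from lines made from it. An integrin joins an α and a β subunit into a receptor for the matrix outside the cell. The null line carried no added subunit, the α3 line carried human α3 by stable transfection, the α9 line carried human α9 by stable retroviral transduction, and the α3α9 line carried both. All 4 lines therefore share the loss of mouse α3 and the large T antigen, and they were kept at 33 °C on collagen. The medium was low in calcium (0.05 mM) and contained interferon-γ (10 units per ml) and the growth factor EGF (10 ng per ml). It also held fetal bovine serum (4%), hydrocortisone (0.4 µg per ml) and insulin (5 µg per ml), the same for all lines. The labels do not say whether a line is a clone or a pool of cells, and each combination of subunits was 1 line, so an added subunit and any other difference between lines cannot be told apart. Each line had 2 arrays, 8 in all, which the labels call biological replicates without saying that they came from separate cultures. The p-values therefore rest on how far the 2 arrays of a line lie apart, and that distance may be technical. This spread was pooled over the 4 lines and, for each cluster, drawn toward the spread typical of all clusters.

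The comparisons ask which genes differ with α3, in the absence of α9 (α3 minus null) and in its presence (α3α9 minus α9), and which differ with α9, in the absence of α3 (α9 minus null) and in its presence (α3α9 minus α3). Values are the authors' intensities from the Affymetrix Mouse Exon 1.0 ST array. A difference is that of log2(intensity + 16), given with its SE, and its adjusted p comes from limma, a linear model fitted to all 23332 clusters and all 8 arrays, with Benjamini-Hochberg adjustment within a comparison. A gene passed where this p was under 0.05. Only such genes are said to rise or fall. Array medians ranged from 82.8 to 127, both of these in the α3α9 line, so each comparison was also run after quantile normalization, which gives every array the same distribution of values. The word re-analysis stands in the titles of the null and α3 samples and not in the others. Each comparison for α9, and that of the α3α9 line with the null line, therefore crosses that mark. The mark and the α9 subunit cannot be told apart in any of them. The array probes mouse transcripts and the added subunits are human, so the signals of Itga3 and Itga9 do not check the labels.

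The signals of the desmosomal genes fell into a bright and a dim set. Dsc3, Dsg3, Jup, Pkp1, Pkp3 and Perp lay above the median of their array on all 8 arrays. Dsc2 and Dsg2, the pair more typical of simple epithelia and heart, lay below it on all 8, with intensities of 36.0 to 57.8 and 30.1 to 39.6. Pkp2, also known from simple epithelia and heart, lay below it on 7 of 8, with 43.9 to 102. Probes differ in how brightly they bind, so these positions describe signals and give no ranking of transcript amounts between genes.

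Dsc3, desmocollin 3, set the lines apart most clearly. It gave 3987 and 4458 on the null arrays, 567 and 585 on the α3 arrays, 6099 and 6323 on the α9 arrays and 821 and 1269.5 on the α3α9 arrays. The highest array of a line with α3 thus lay under every array of the lines without it. Dsc3 fell with α3 in both backgrounds. In the absence of α9 the mean was 7.33 times lower, a log2 difference of -2.84 ± 0.24 (95% interval -3.36 to -2.31, adjusted p = 2.4e-04 from limma). In the presence of α9 it was 5.94 times lower, -2.59 ± 0.24 (-3.11 to -2.06, adjusted p = 5.3e-04 from limma). These are whole cultures, in which fewer cells with the transcript and less RNA per cell cannot be told apart. The comparisons for α3 share no array, but they share the parent line and the estimate of spread, which came from all 8 arrays. Dsc3 kept its side of the threshold without each of the 8 arrays in turn, with differences of -2.92 to -2.76 and of -2.90 to -2.28.

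With α9, Dsc3 gave higher intensities in both backgrounds, by 0.56 ± 0.24 in the absence of α3 (adjusted p = 0.22) and by 0.81 ± 0.24 in its presence (adjusted p = 0.092 from limma), and neither passed. After quantile normalization the second of these, 0.63, passed (adjusted p = 0.015), and did so in 6 of the 8 fits on that scale that each left out 1 array. The α3α9 line still lay below the null line, with a mean 4.04 times lower (-2.03 ± 0.24, adjusted p = 0.0011). The order of the means was α9, null, α3α9 and α3. Of the neighbours in that order, null and α3α9 differed past the threshold, while α9 and null did not, and α3α9 and α3 did so only after quantile normalization.

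**Figure D1:**
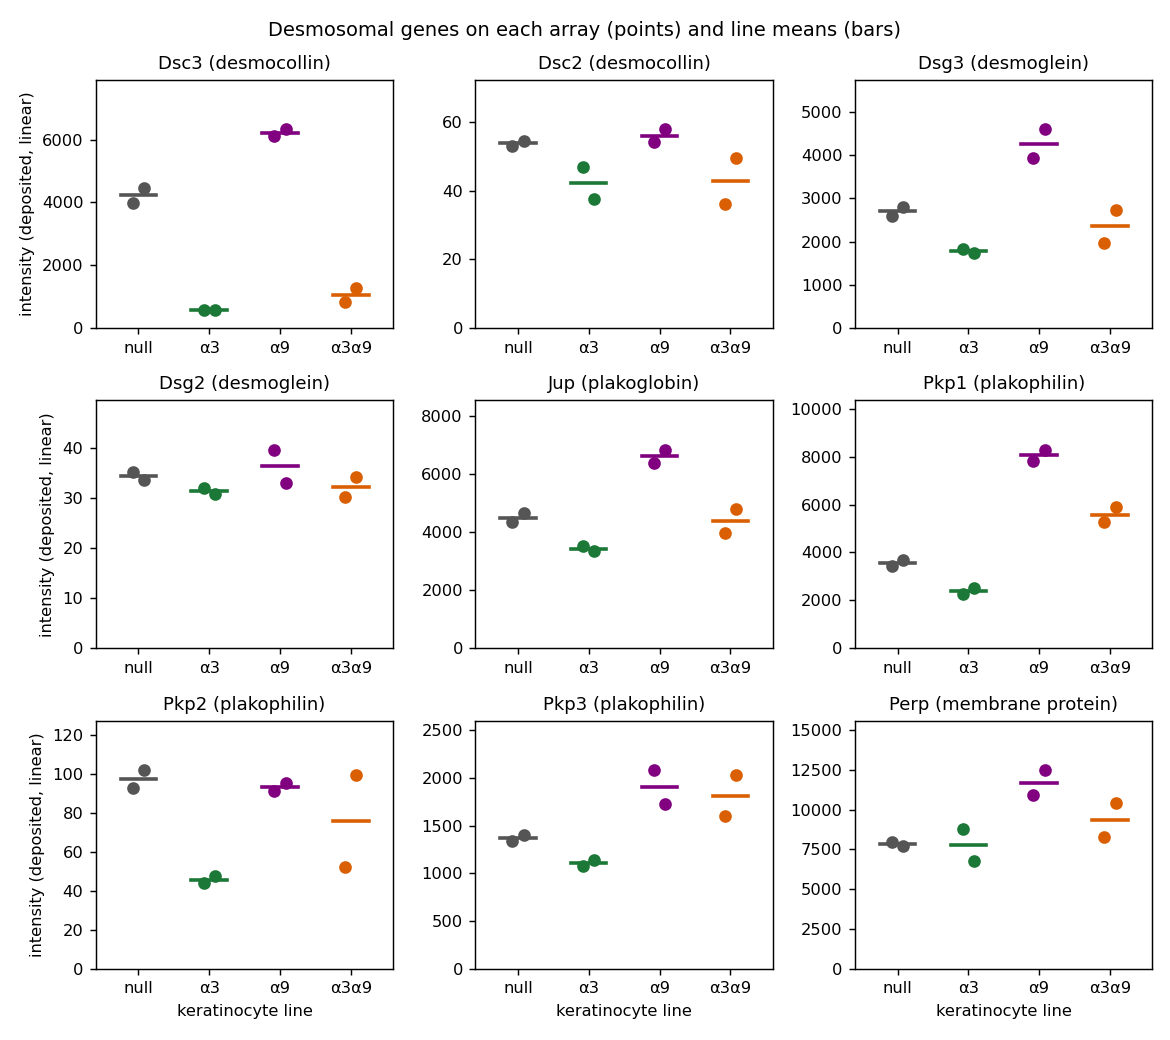
Deposited intensity of each of the 9 measured desmosomal genes on the 8 arrays, on linear axes that start at 0, with 1 point per array and a bar for the mean of the 2 arrays of a line. Dsc3 lies between 567 and 1269.5 in the lines with α3 and between 3987 and 6323 in the lines without it.

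Dsg3, desmoglein 3, the antigen that antibodies attack in human pemphigus vulgaris, showed a smaller difference in the same direction. It gave 2599 and 2790 (null), 1827.5 and 1729 (α3), 3933.5 and 4595 (α9), and 1965 and 2731 (α3α9). The α3 arrays lay below the null arrays and the α3α9 arrays below the α9 arrays, without overlap. The differences were -0.59 ± 0.22 (adjusted p = 0.35) and -0.87 ± 0.22 (adjusted p = 0.1 from limma), and neither passed on the deposited scale. Their 95% intervals were -1.09 to -0.1 and -1.37 to -0.38. After quantile normalization both passed, at -0.62 (adjusted p = 0.035) and -0.78 (adjusted p = 0.014). These passed in 2 and 5 of the 8 fits on that scale that each left out 1 array.

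Dsc2 and Dsg2, the dim cadherins, passed in no comparison on either scale. Dsc2 averaged 53.8 ± 1.10 (SD, n = 2, as for all means here) in null, 42.2 ± 6.51 in α3, 56.0 ± 2.53 in α9 and 42.7 ± 9.50 in α3α9 cells. Its arrays with α3 lay below those without α3 in both backgrounds, by -0.27 ± 0.21 and -0.30 ± 0.21 (adjusted p = 0.76 and 0.69 from limma). Dsg2 averaged 34.4 ± 1.14, 31.3 ± 0.761, 36.3 ± 4.62 and 32.1 ± 2.86 in the same order. The added 16 shrinks differences at such intensities, so a change in these genes may not be detectable here.

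The desmosomal cadherin genes lie in a stretch of mouse chromosome 18. Their order in the RefSeq table of assembly GRCm38.p6 is Dsc3, Dsc2, Dsc1, Dsg1c, Dsg1a, Dsg1b, Dsg4, Dsg3 and Dsg2. The nearest gene with a cluster of its own was Cdh2 before Dsc3 and Ttr after Dsg2. Other genes that lie between any of these were left out. The Dsg1 genes had no cluster of their own. Dsc1 and Dsg4, cadherins of the upper epidermis and the hair follicle, passed in no comparison on the deposited scale, and their means stayed between 15.6 and 26.5. Cdh2, the nearest such gene before Dsc3, encodes N-cadherin, the classical cadherin of neural and mesenchymal cells. Its means were 273 ± 8.41 (null), 762 ± 126 (α3), 352 ± 14.0 (α9) and 1182 ± 383 (α3α9). Cdh2 rose where Dsc3 fell, by 1.42 ± 0.25 (adjusted p = 0.023) in the absence of α9 and by 1.67 ± 0.25 (adjusted p = 0.0088 from limma) in its presence. The first did not pass without either null or either α3 array (adjusted p = 0.086 to 0.27), and the second did not without α9 replicate 2 (0.061). Ttr, at the other end, gave 0.13 ± 0.25 and -0.08 ± 0.25. Cdh2 and Dsc3 thus differed with α3 in opposite directions, Cdh2 upward and Dsc3 downward. They are next to each other only among genes with a cluster of their own, and the distance between them was not considered.

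**Figure D2:**
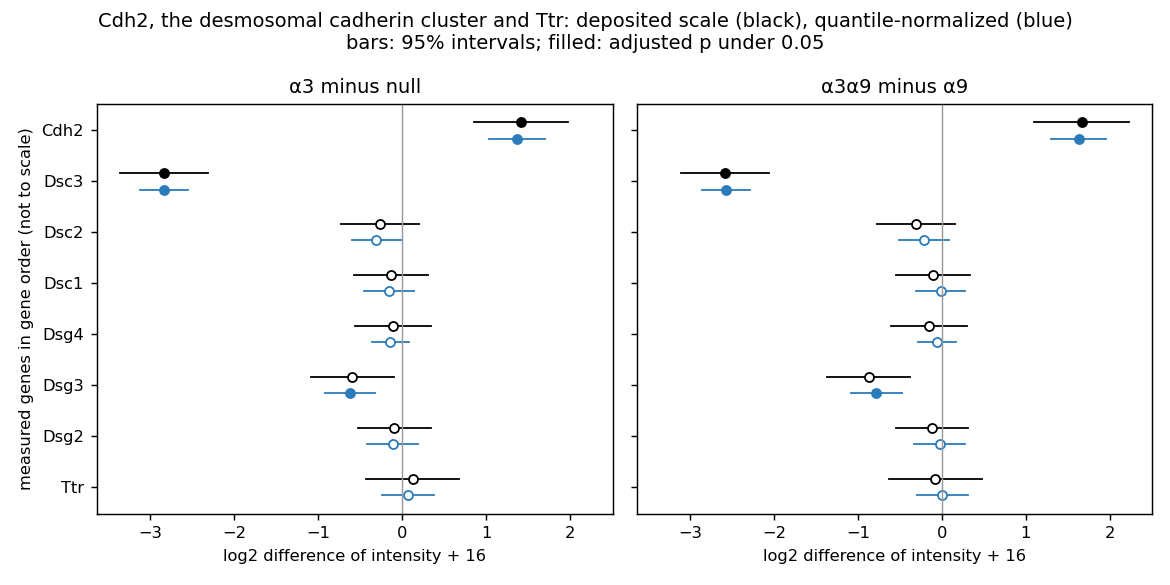
Differences in log2(intensity + 16) with α3, in the absence and presence of α9, for Cdh2, the measured genes of the cadherin stretch and Ttr. Genes are in their order along the chromosome, and positions are ranks among the genes shown, not distances. Points and bars for the 95% interval are black on the deposited scale and blue after quantile normalization. Points are filled where adjusted p was under 0.05. On the deposited scale Cdh2 lies above 0 at 1.42 and 1.67, Dsc3 below at -2.84 and -2.59, and Dsg2 and Ttr near 0.

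In the plaque, Jup (plakoglobin, which binds the cadherin tails and also classical cadherins) followed the pattern of Dsg3. It gave 4354 and 4644.5 (null), 3512 and 3337 (α3), 6379 and 6836 (α9), and 3980.4 and 4785 (α3α9). The arrays of α3 lay below those of null, and those of α3α9 below those of α9. The differences with α3 were -0.39 ± 0.20 (adjusted p = 0.54) and -0.60 ± 0.20 (adjusted p = 0.24 from limma). After quantile normalization they were -0.43 (adjusted p = 0.05, not under the threshold) and -0.52 (adjusted p = 0.025). With α9 Jup differed by 0.55 ± 0.20 and 0.35 ± 0.20 (adjusted p = 0.15 and 0.38), and the first passed after quantile normalization at 0.38 (adjusted p = 0.046). Of the fits that left out 1 array on that scale, 2 of 8 kept the fall with α3 in the presence of α9, and 0 of 8 kept the rise with α9.

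Pkp1, plakophilin 1, whose loss in humans causes a skin fragility syndrome, was the member that differed most with α9. It gave 3443.5 and 3689 (null), 2279.9 and 2529 (α3), 7816 and 8283 (α9), and 5259 and 5907 (α3α9). The 4 arrays with α9 lay above the 4 arrays without it. Pkp1 rose with α9 in both backgrounds, 2.26-fold in the absence of α3 (1.17 ± 0.19, 95% interval 0.74 to 1.61, adjusted p = 0.012) and 2.32-fold in its presence (1.21 ± 0.19, 0.77 to 1.64, adjusted p = 0.012 from limma). The first did not pass without either null array (adjusted p = 0.14 and 0.098) or either α9 array (0.062 and 0.075), and the second did not without either α3 array (0.13 and 0.095). After quantile normalization both passed, at 1.01 (adjusted p = 0.0055) and 1.15 (0.0037), and did so without each of the 8 arrays in turn.

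With α3, Pkp1 differed the other way, by -0.57 ± 0.19 in the absence of α9 and -0.53 ± 0.19 in its presence (adjusted p = 0.29 and 0.3 from limma). Neither passed, and after quantile normalization the first did (-0.59, adjusted p = 0.047), though in 0 of the 8 fits that left out 1 array. The order of the means was α9, α3α9, null and α3, so Pkp1 in the α3α9 line lay above the null line (0.64 ± 0.19, adjusted p = 0.092, and 0.56 after quantile normalization, adjusted p = 0.032, passed in 2 of the 8 fits that left out 1 array and lost with the replicate number as a block) while Dsc3 in that line lay below it.

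Pkp2, plakophilin 2, gave 92.9 and 102 (null), 43.9 and 47.3 (α3), 91.0 and 95.1 (α9), and 52.1 and 99.1 (α3α9). The α3 arrays lay below every array of the null and α9 lines, and the α3α9 arrays lay far apart, 1 near each of these levels. The difference in the absence of α9 was -0.88 ± 0.26 (adjusted p = 0.19 from limma), and it passed after quantile normalization at -0.95 (adjusted p = 0.016), in 4 of the 8 fits without 1 array. In the presence of α9 it was -0.30 ± 0.26 (adjusted p = 0.79), and without α3α9 replicate 1 it was 0.08.

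Pkp3, plakophilin 3, found in desmosomes of most epithelia, averaged 1369.8 ± 42.9 (null), 1109 ± 40.6 (α3), 1903.5 ± 253 (α9) and 1817 ± 306 (α3α9). Its arrays with α9 lay above those without it in both backgrounds. The differences with α9 were 0.46 ± 0.21 (adjusted p = 0.26) and 0.69 ± 0.21 (adjusted p = 0.1 from limma), and the second passed after quantile normalization at 0.56 (adjusted p = 0.024), in 6 of the 8 fits without 1 array. With α3 it gave -0.30 ± 0.21 and -0.07 ± 0.21.

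Perp encodes a membrane protein that desmosomes of mouse stratified epithelia need, and it is a target of the transcription factor p63. It averaged 7847 ± 164 (null), 7788 ± 1441 (α3), 11690.0 ± 1115 (α9) and 9369 ± 1499 (α3α9), and passed in no comparison on either scale. The α3 arrays, 8806 and 6769, lay on both sides of the null arrays, 7963 and 7731. In the absence of α9 the difference with α3 was -0.02 ± 0.22, with a 95% interval of -0.52 to 0.47.

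**Figure D3:**
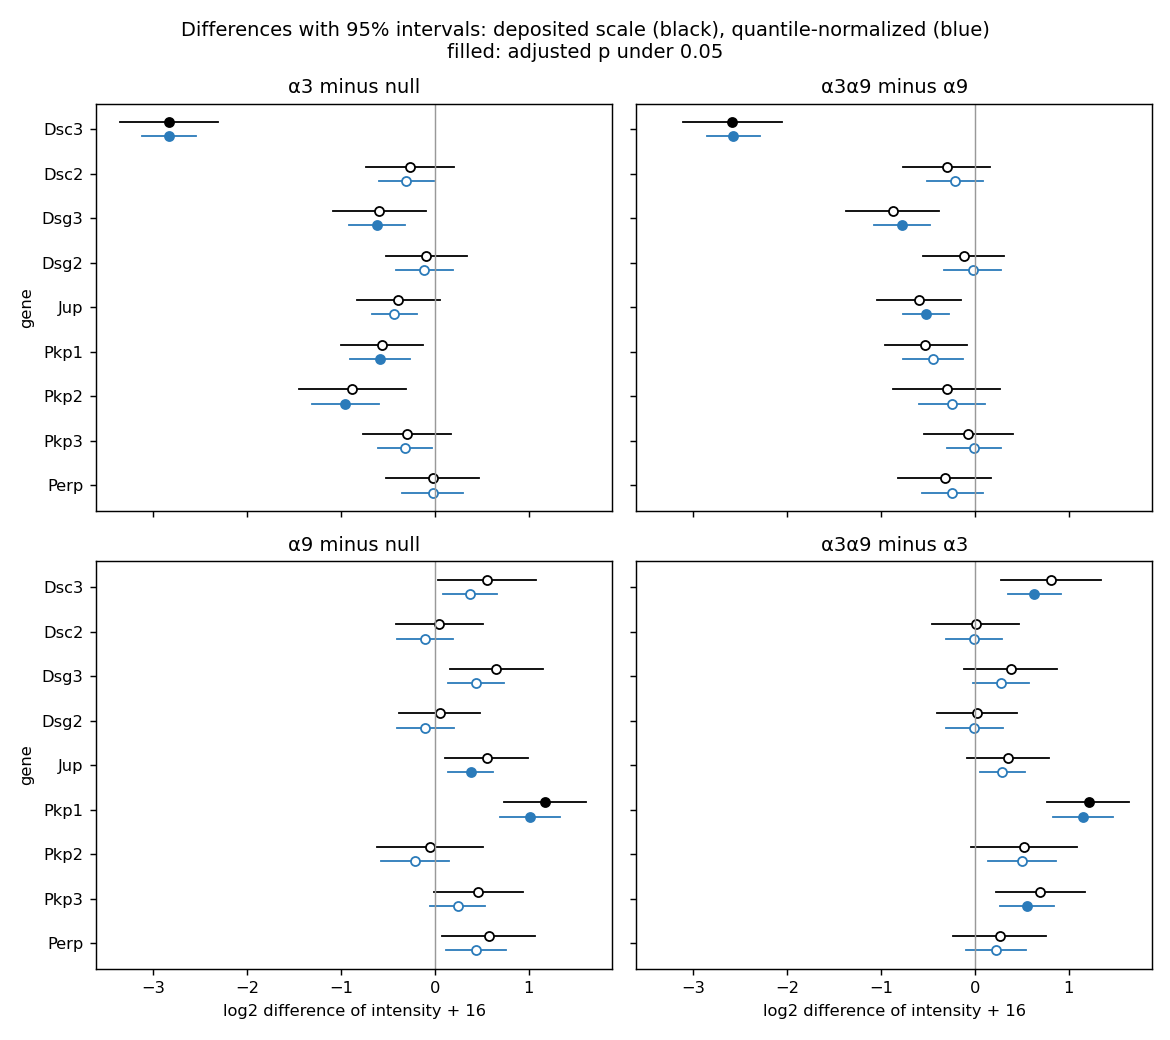
Differences in log2(intensity + 16) of the 9 desmosomal genes in the 4 comparisons for α3 and α9, black on the deposited scale and blue after quantile normalization, with bars for the 95% interval, filled where adjusted p was under 0.05. Dsc3 in the comparisons for α3 (-2.84 and -2.59) and Pkp1 in those for α9 (1.17 and 1.21) passed on both scales.

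Counted together, 1 of the 9 genes (Dsc3) fell in the absence of α9 and none rose, while 1.3% of all clusters passed in that comparison and 0.351% fell. All 9 differences were below 0, as were 48.1% of all clusters, and their median was -0.39 beside 0.01 over all clusters. The arrays of 8 of the 9, all except Perp, lay below the null arrays without overlap, which held for 23.5% of all clusters. In the presence of α9, 1 of 9 fell (Dsc3), beside 1.87% of all clusters that passed and 0.823% that fell. Again all 9 differences were below 0, as were 59.2% of all clusters, with a median of -0.33 beside -0.06. The arrays of 6 of 9 lay lower without overlap, beside 18.0% of all clusters.

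After quantile normalization 4 of 9 fell in the absence of α9 (Dsc3, Dsg3, Pkp1 and Pkp2), beside 8.21% of all clusters that passed and 3.75% that fell. In its presence 3 fell (Dsc3, Dsg3 and Jup), beside 9.96% that passed and 4.29% that fell. The medians were -0.43 and -0.25, beside -0.04 and -0.01 over all clusters. Beyond Dsc3, the calls of desmosomal genes in these comparisons therefore depended on the scale of the arrays.

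With α9, 1 of 9 rose in the absence of α3 (Pkp1), beside 4.32% of all clusters that passed and 3.5% that rose. The differences of 8 of 9 were above 0, as were 69.2% of all clusters, with a median of 0.55 beside 0.16. The arrays of 6 of 9 lay higher without overlap, beside 45.5% of all clusters. In the presence of α3, 1 of 9 rose (Pkp1), beside 3.28% that passed and 2.14% that rose. All 9 differences were above 0, as were 61.6% of all clusters, with a median of 0.38 beside 0.10, and the arrays of 6 of 9 lay higher without overlap, beside 29.0%. After quantile normalization 2 rose in the first (Pkp1 and Jup, beside 17.1% of all clusters that passed in either direction) and 3 in the second (Pkp1, Dsc3 and Pkp3, beside 18.8%), and Dsc2 and Dsg2 turned below 0 in both. Of the 23332 clusters, 2062 and 2347 rose on that scale in these comparisons. Against the null line, the α3α9 line had 1 member that fell (Dsc3) and none that rose on the deposited scale, beside 5.93% of all clusters that passed, with a median of -0.07 beside 0.11. After quantile normalization Dsc3 fell and Pkp1 rose, beside 18.3%.

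Whether the difference with α3 depends on α9 was tested as an interaction, the difference in the presence of α9 minus that in its absence. None of the 9 genes passed (on the deposited scale adjusted p = 0.99 or 1 for each, and none with an unadjusted p under 0.05), beside 0.0857% of all clusters on that scale. For Dsc3 it was 0.25 ± 0.33 (95% interval -0.49 to 1), for Dsg3 -0.28 ± 0.31 and for Pkp1 0.04 ± 0.28. For Pkp2 it was 0.58 ± 0.36 (-0.23 to 1.38, adjusted p = 0.99), and 0.71 after quantile normalization (0.2 to 1.21, unadjusted p = 0.013, adjusted p = 0.19 from limma). These intervals are wide, and a p that misses the threshold does not show that the effect of α3 was the same in both backgrounds.

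The 9 genes varied together to different degrees. Over the 8 arrays, Pearson's r of log2(intensity + 16) was 0.99 between Dsg3 and Jup, 0.931 between Pkp1 and Pkp3 and 0.901 between Dsc3 and Dsg3, and 0.522 between Dsc3 and Pkp3. These are descriptions over arrays that share their line and their overall scale. After quantile normalization the same pairs gave 0.981, 0.944, 0.933 and 0.511, while Dsg2 and Perp went from 0.462 to -0.395. The genes most like 4 of the members were then sought among 8878 genes with a mean intensity of at least 100. The pattern of Dsc3 was closest to that of Igf2bp3, an RNA-binding protein (r = 0.993 over 8 arrays), Ctsa, the lysosomal protein cathepsin A (0.992), and Med16 (0.986). Pearson's r takes no account of size. In α3 against null cells the mean of Med16 was 1.84 times lower, beside 7.33 times for Dsc3. Med16 did not pass there on the deposited scale (adjusted p = 0.093 from limma) and passed after quantile normalization (adjusted p = 0.011 from limma). Igf2bp3 averaged 376 ± 33.4 (null), 15.2 ± 3.33 (α3), 623 ± 146 (α9) and 38.7 ± 8.46 (α3α9). Pkp1 was closest to Slc45a3, Afap1l2 and Nbr1 (0.994, 0.991 and 0.989). Slc45a3 averaged 375 ± 19.3, 238 ± 26.1, 988 ± 74.4 and 629 ± 118 in the same order of lines. Neither it nor Pkp1 passed with α3 on the deposited scale. After quantile normalization Slc45a3 passed in both comparisons for α3 (-0.71 and -0.67, adjusted p = 0.035 for each), and Pkp1 in the first. Dsg3 was closest to Map4 (0.982), Ptgs2 and Sema5a (each 0.98), and Pkp3 to Cog1, Wdr11 and Cobl (0.998, 0.995 and 0.994).

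Other genes of the desmosomal plaque and of the envelope that desmosomes attach to were led by Cdsn, which encodes corneodesmosin, an adhesive protein of the desmosomes of the outermost epidermis. Of 10 such genes 7 were measured. On the deposited scale none passed with α3 in the absence of α9, and Cdsn alone rose in its presence. Cdsn averaged 188 ± 7.70 (null), 214 ± 28.5 (α3), 1316 ± 123 (α9) and 3471 ± 945 (α3α9). Every array with α9 lay above every array without it. Cdsn rose with α9 by 2.71 ± 0.24 in the absence of α3 (adjusted p = 6.1e-04) and by 3.90 ± 0.24 in its presence (adjusted p = 1.1e-04 from limma), and both passed without each array in turn. It also rose with α3 in the presence of α9, by 1.36 ± 0.24 (adjusted p = 0.018), which did not pass without either α9 array (0.073 to 0.095). Periplakin, encoded by Ppl, was the other member that rose with α9 in the absence of α3 (1.17 ± 0.21, adjusted p = 0.018, not passed without either null or either α9 array, 0.064 to 0.15). The medians of the 7 genes in the comparisons for α9 were 0.30 and 0.47. After quantile normalization Ppl and Kazn, the gene of kazrin, also rose with α9 in the presence of α3.

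Of 14 keratins that desmosomes can anchor, 10 were measured. The main basal pair, Krt5 and Krt14, passed in no comparison on either scale, and the means of Krt5 were 13730.0 and 14491 without α3 and 13536 and 13864 with it. Krt19, a keratin of simple epithelia, rose with α3 by 2.75 ± 0.23 and 3.18 ± 0.23 (adjusted p = 2.5e-04 and 1.2e-04 from limma). Krt16, a keratin of activated epidermis, fell with α3 in the presence of α9 (-3.00 ± 0.29, adjusted p = 7.1e-04) and gave -1.17 ± 0.29 in its absence (adjusted p = 0.11). On the deposited scale no keratin passed in either comparison for α9, and the medians over the 10 were -0.11 in both comparisons for α3. After quantile normalization Krt16 also fell with α3 in the absence of α9 (-1.20, adjusted p = 0.0097), Krt18, another keratin of simple epithelia, rose with α3 in both backgrounds (0.50 and 0.48, adjusted p = 0.033 and 0.032), and with α9 in the presence of α3 Krt15 rose (0.76, adjusted p = 0.016) and Krt16 fell (-1.23, adjusted p = 0.0051). The Krt16 interaction passed on that scale (-1.79, adjusted p = 0.032). Leaving out single arrays on that scale was run for the desmosomal genes alone.

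The other junction types gave few calls on the deposited scale and more after quantile normalization. Of 10 measured adherens junction genes of 12 listed, Cdh2 and Nectin3 (1.55 ± 0.27, adjusted p = 0.02) were higher past the threshold with α3 without α9, and Cdh2 also with α9. In these comparisons 1.3% and 1.87% of all clusters passed in either direction. Nectin3 did not pass without either null or either α3 array (adjusted p = 0.054 to 0.25). Cdh1, the E-cadherin gene, averaged 1793 ± 20.7 (null), 1301 ± 175 (α3), 2315 ± 424 (α9) and 1783 ± 180 (α3α9) and passed in no comparison on the deposited scale. With α9, Nectin4 rose in the absence of α3 (1.12 ± 0.24, adjusted p = 0.031) and the vinculin gene Vcl in its presence (1.13 ± 0.20, adjusted p = 0.021), beside 3.5% and 2.14% of all clusters that rose. Nectin4 was lost without any 1 of the null, α3 and α9 arrays (0.058 to 0.21), and Vcl without either α3 array (0.15 to 0.17). None of 10 measured tight junction genes of 12, and none of 4 gap junction genes of 6, passed in these comparisons on the deposited scale. After quantile normalization 5 and 3 of the 10 adherens junction genes passed with α3 in the absence and presence of α9, beside 8.21% and 9.96% of all clusters. With α9 in the absence and presence of α3, 2 and 4 of these adherens junction genes passed, beside 17.1% and 18.8%. In the adherens junction list Cdh3, the P-cadherin gene, fell with α3 in both backgrounds (-0.47 and -0.52, adjusted p = 0.041 and 0.026). Cldn1, the tight junction gene of claudin 1, fell with α3 in both (-0.51 and -0.44, adjusted p = 0.025 and 0.034), and Cxadr rose with α3 in the presence of α9 (0.56, adjusted p = 0.014). The tight junction list had 3 rises among its 10 measured genes with α9 in each background, beside 17.1% and 18.8% of all clusters that passed in either direction. In the gap junction list Gja1 and Gjb5, which encode connexins, fell with α3 in the presence of α9 (-0.58 and -0.79, adjusted p = 0.04 and 0.019), and Gja1 fell with α9 in both backgrounds (-0.65 and -0.90, adjusted p = 0.02 and 0.0067).

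**Figure D4:**
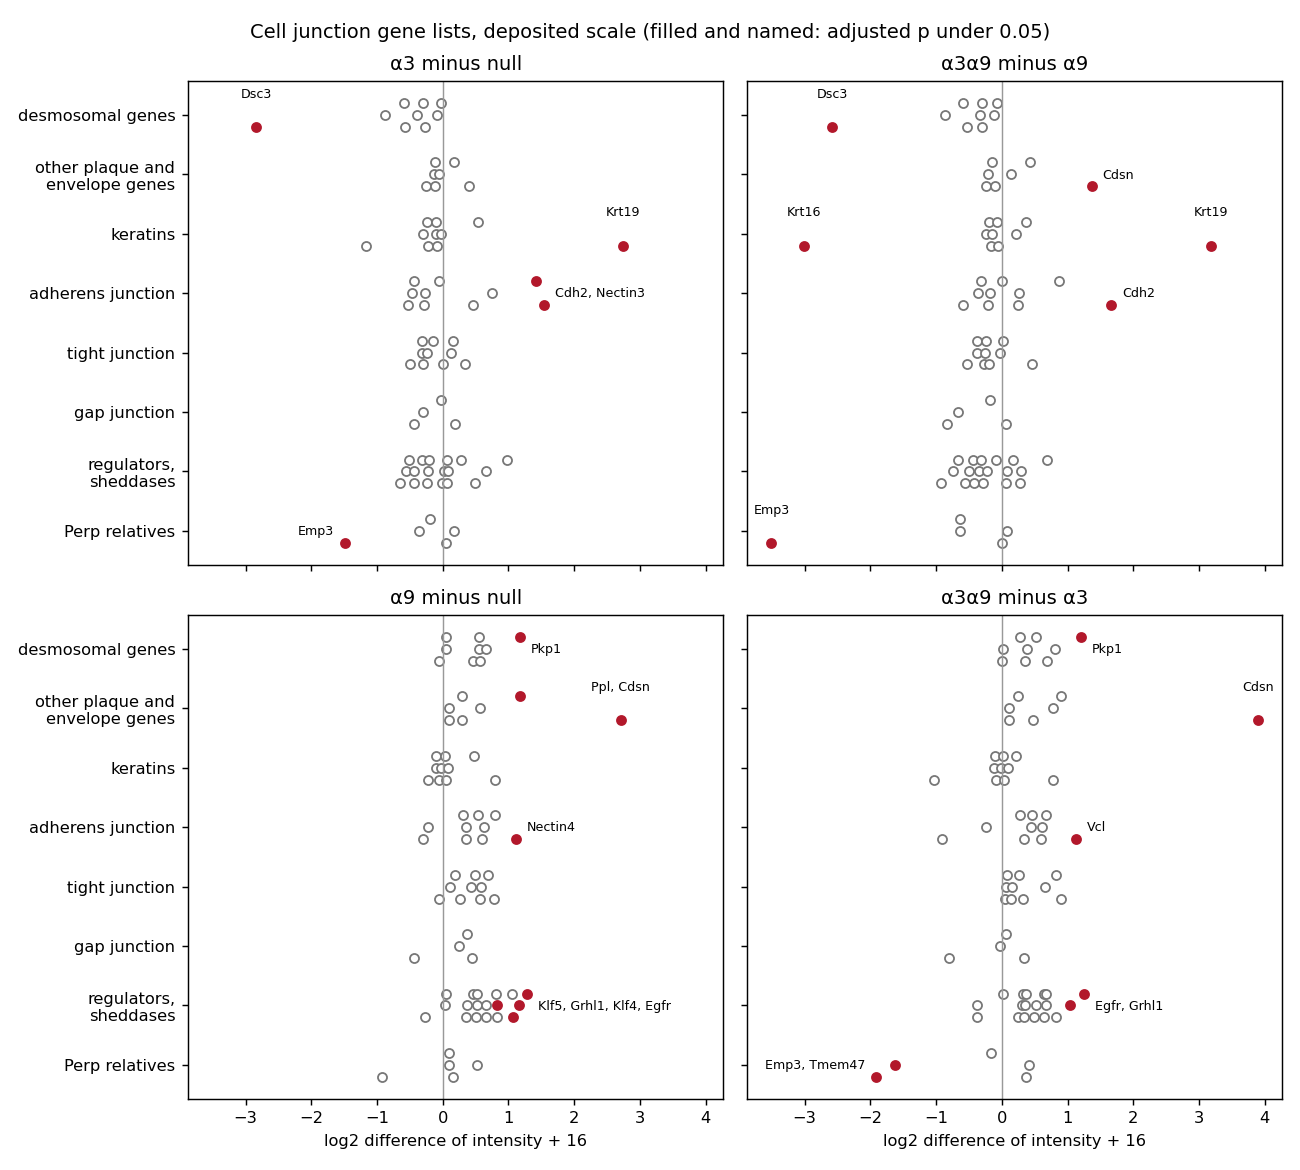
Differences in log2(intensity + 16) on the deposited scale for the measured genes of the desmosomal set and of 7 related lists, 1 point per gene, in the comparisons for α3 (top) and α9 (bottom), with genes that passed filled and named. Among the desmosomal genes Dsc3 is the filled point in both upper panels and Pkp1 in both lower ones, and the tight and gap junction rows hold none.

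Regulators of desmosomes (transcription factors of the epidermis, kinases, and the proteases that shed desmosomal cadherins) gave no call on the deposited scale among 18 measured genes, of 22 listed, in either comparison for α3, with medians of -0.12 and -0.30 in the absence and presence of α9. After quantile normalization 5 of 18 passed in each, beside 8.21% and 9.96% of all clusters. In the absence of α9 Twist1 and Adam9 rose and Trp63, Grhl1 and Ovol1 fell, and in its presence Adam9 rose and Trp63, Klf4, Ovol1 and Snai2 fell. With α9 in the absence of α3, 4 of 18 rose on the deposited scale, beside 3.5% of all clusters: Egfr, the EGF receptor gene (1.28 ± 0.22), the differentiation factors Klf4 (1.16 ± 0.20) and Klf5 (0.83 ± 0.20), and Grhl1 (1.08 ± 0.24), a grainyhead factor known in mouse to regulate desmosomal cadherin genes. The adjusted p was 0.013 to 0.048, and all 4 were lost without either null or either α9 array, with p of 0.064 to 0.3. Klf5 and Grhl1 were also lost without either α3 array. In the presence of α3, Grhl1 and Egfr rose, by 1.25 ± 0.24 and 1.03 ± 0.22, and both were lost without either α3 array (0.071 to 0.24), and Egfr also without either null array. The 2 rises in the presence of α3 stood beside 2.14% of all clusters that rose. After quantile normalization 10 rose and 1 fell with α9 in the absence of α3, and 8 rose and 1 fell in its presence, beside 17.1% and 18.8% of all clusters that passed. Grhl1, Klf4, Klf5, Egfr, Adam9 and Prkca rose in both backgrounds. Zeb2, Snai2, Twist1 and Adam15 rose only in the absence of α3, and Grhl2 and Adam10 only in its presence. Trp63 was the gene that fell in both. The p63 gene Trp63 averaged 1254 ± 100.3 (null), 846 ± 56.1 (α3), 1039 ± 191 (α9) and 648 ± 98.2 (α3α9). On the deposited scale it fell in the α3α9 line against the null line (-0.94 ± 0.22, adjusted p = 0.035), which was lost without either null, either α3 or the first α3α9 array (0.058 to 0.25). In the same comparison, in which 5.93% of all clusters passed, 3 of the 18 rose. They were Adam9, which encodes a membrane protease (1.34 ± 0.20, adjusted p = 0.0046, lost without null replicate 1), Egfr (1.05 ± 0.22, adjusted p = 0.02, lost without either null array) and the transcription factor gene Twist1 (1.33 ± 0.31, adjusted p = 0.036, lost without either null array or α3α9 replicate 2).

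Perp belongs to the PMP22 family, of which 5 relatives were listed and all 5 measured. Pmp22, Emp1 and Emp2 passed in no comparison on the deposited scale, as Perp did not, while Emp3 and Tmem47 had calls. No test compared the relatives with Perp. Emp3 fell with α3 from 639 ± 119 to 215 ± 6.04 in the absence of α9 (-1.49 ± 0.21, adjusted p = 0.0068) and from 682 ± 73.7 to 45.3 ± 0.722 in its presence (-3.51 ± 0.21, adjusted p = 3.0e-05 from limma). The first was lost without null replicate 2 or either α3 array (0.076 to 0.11). Its interaction was -2.01 ± 0.30 (adjusted p = 0.053), and it passed after quantile normalization (-1.82, adjusted p = 0.045). Emp3 also fell with α9 in the presence of α3 (-1.91 ± 0.21, adjusted p = 0.0019), and this call held without each array in turn. Tmem47 fell with α9 in the presence of α3 (-1.62 ± 0.25, adjusted p = 0.011), and this was lost without α3 replicate 1 (0.11). After quantile normalization Emp1 also fell with α3 in both backgrounds, Tmem47 fell with α9 in both, and Emp2 rose with α9 in the presence of α3.

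These lists also had calls on the deposited scale in the α3α9 line against the null line, a comparison that crosses the re-analysis mark. Cdsn (4.07 ± 0.24), Ppl (1.30 ± 0.21), Krt19 (2.96 ± 0.23), Cdh2 (2.02 ± 0.25), Nectin4 (1.37 ± 0.24) and the tight junction gene Cxadr (1.24 ± 0.22) rose, with adjusted p of 2.0e-05 to 0.0096 from limma. Krt16 (-2.20 ± 0.29), the connexin gene Gja1 (-1.10 ± 0.19), Emp3 (-3.40 ± 0.21) and Tmem47 (-1.57 ± 0.25) fell, with adjusted p of 2.8e-05 to 0.0094. Ppl, Nectin4, Cxadr and Gja1 were lost without either null array (0.051 to 0.11), and the other 6 held without each array in turn.

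Markers of basal keratinocytes were bright in every line. The summed intensity of 7 such markers was 37788 to 38856 (null), 33644 to 34915 (α3), 41999 to 42371 (α9) and 34328 to 36892 (α3α9), and the sum was lower in each line with α3 than in its counterpart without it. On the deposited scale none of the 7 passed in the comparisons for α3 or α9. After quantile normalization Itga6, Trp63 and Col17a1 fell with α3 in the absence of α9 and Itga6 and Trp63 in its presence, Trp63 fell with α9 in both backgrounds, and Krt15 rose with α9 in the presence of α3. Of 5 measured markers of differentiated keratinocytes, whose sum was 1564.5 to 1631 (null), 881 to 1075 (α3), 1469 to 1589 (α9) and 790.1 to 1265 (α3α9), Sbsn fell with α3 in the absence of α9 (-1.51 ± 0.22, adjusted p = 0.0094, lost without either null or either α3 array, 0.076 to 0.1). Ivl, the involucrin gene, averaged 214 ± 90.9 (null), 178 ± 40.5 (α3), 92.1 ± 32.3 (α9) and 48.8 ± 7.69 (α3α9). It fell with α9 in the presence of α3 (-1.57 ± 0.32, adjusted p = 0.031, lost without either α3 array or α3α9 replicate 1, 0.062 to 0.22) and in α3α9 against null (-1.78 ± 0.32, adjusted p = 0.011, lost without null replicate 2, 0.085). After quantile normalization Sbsn fell with α3 in both backgrounds and rose with α9 in the presence of α3, and Ivl fell with α9 in both. The sums of the basal and the differentiated list, like Dsc3, were lower in each line with α3 than in its counterpart without it. The differentiated sums overlapped between null and α9 and between α3 and α3α9. The part of these 2 lists in the Dsc3 result was not tested. Of 2 measured markers of simple epithelium (Krt18 and Krt19) the sum was 3024 to 3581 (null), 9530.0 to 9750.5 (α3), 3226 to 3238.5 (α9) and 8911 to 11942 (α3α9), and Krt19 rose as given above. The part of the simple epithelium list in the Dsc3 result was not tested either. Fibroblast, melanocyte, endothelial and Merkel cell markers had no call in these comparisons on the deposited scale, and their highest single value was 236. Dcn, a fibroblast marker, rose with α9 in the absence of α3 after quantile normalization. Among 5 leukocyte markers Cd68, a lysosomal protein gene, rose with α9 in the absence of α3 (1.11 ± 0.25, adjusted p = 0.037, lost without either null, α3 or α9 array, 0.069 to 0.32), while Ptprc, the defining leukocyte marker, averaged 23.9 to 32.7.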

How the data were processed

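RNA of 4 keratinocyte lines was measured on 8 exon arrays. For each array and transcript cluster the authors deposited a linear intensity, made with Affymetrix Expression Console and PLIER, per the submitters' processing notes. Their versions, filters and genome build are not stated in the labels. PLIER summarizes the probes of a cluster, so a change in part of a transcript is averaged.

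Samples were grouped by their titles. Of 23332 clusters, 14996 had 1 gene in the platform annotation, 1019 several and 7317 were unlisted. Symbols of 14805 of 14860 genes matched the RefSeq table of GRCm38.p6, used for names and gene order alone. log2(intensity + 16) was fitted in limma 3.58.1 (lmFit, eBayes; R 4.3.3) (4 residual degrees of freedom). All members are named. Of each other list, genes that passed on the deposited scale are named (up to 4 per comparison, by smallest adjusted p), and genes that did not pass, such as Krt5, Krt14, Cdh1, Ptprc and Krt16 in one comparison, and genes that passed after quantile normalization alone, were added after their values were seen. The members and lists were chosen with earlier results of these data known. The fit was tested on simulated data. These had limma's own model of spread and no difference in scale between arrays, so they do not bear on the unequal array medians. Alternatives were quantile normalization, scaling to a common median, pseudocounts of 1 and 64, dropping the 25% of clusters with the lowest means, the compared lines alone, the replicate number as a block, and leaving out each array. Quantile normalization combined with the last 2 was added after seeing the data. Arrays give no read depth, and their number limits the precision. Replicate arrays held 0 identical values. Figures were drawn with matplotlib 3.10.9.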

Additional observations from a re-analysis of the deposited data

How the results depend on the processing

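The number of desmosomal genes that passed moved with the scale of the arrays. For α3 minus null it was 1, and 2 with arrays scaled to a common median, 2 in the compared lines alone, 4 after quantile normalization and 2 with quantile normalization and the replicate block. For α3α9 minus α9 it was 1, and 2, 3 and 2 under common-median scaling, quantile normalization, and quantile normalization with the block. For α9 minus null it was 1, and 0 with a pseudocount of 1 and 2 after quantile normalization. For α3α9 minus α3 it was 1, and 3 under common-median scaling, 0 and 2 with pseudocounts of 1 and 64, 3 after quantile normalization and 4 with the block added. For α3α9 minus null it was 1, and 2 with a pseudocount of 64 and after quantile normalization (Dsc3 lower, Pkp1 higher), and 2 with the block added (Dsc3 and Pkp2, both lower). Leaving out 1 array gave 1 to 2, 1 to 2, 0 to 2, 0 to 4 and 1 to 2 in the same order, and 1 to 3, 1 to 3, 1 to 2, 1 to 3 and 1 to 2 after quantile normalization. No member passed the interaction in any of these fits. With the replicate number as a block on the deposited scale 1 member passed in each of the 5 comparisons between lines and 0 in the interaction, the same as without it. Same-numbered arrays deviated together at r of -0.215 to 0.0727, which shows no pairing by number but, with so few arrays, cannot exclude it. The block changed no call of a member on the deposited scale. Added to quantile normalization, it lost Dsg3 and Pkp1 in α3 minus null, Jup in α3α9 minus α9 and in α9 minus null, and Pkp1 in α3α9 minus null, and it gained Pkp2 in α3α9 minus α3 and α3α9 minus null. Directions turned for dim members and for differences near 0. Dsc2 turned to -0.01 in α3α9 minus α3 after quantile normalization, to -0.091 and -0.108 in α9 minus null under common-median scaling and quantile normalization, and to 0.103 and 0.098 in the interaction. Dsg2 turned to -0.009, to -0.074 and -0.101, and to 0.105 and 0.092 in the same places. The cause was not tested. Leaving out 1 array gave ranges that crossed 0: for Dsc2 -0.158 to 0.174 in α3α9 minus α3 and -0.203 to 0.129 in the interaction, and for Dsg2 -0.038 to 0.083, -0.04 to 0.14 in α9 minus null and -0.118 to 0.063 in the interaction. The interaction of Dsc3 ran from -0.057 to 0.562 and that of Pkp1 from -0.046 to 0.122. In α3α9 minus null Dsg3 ran from -0.452 to 0.02, Jup from -0.175 to 0.089 and Pkp2 from -0.735 to 0.024. Pkp2 ran from -0.68 to 0.079 in α3α9 minus α9 and from -0.112 to 0.002 in α9 minus null. Pkp3 ran from -0.242 to 0.101 in α3α9 minus α9, and Perp from -0.213 to 0.166 in α3 minus null. In these fits the remaining array of a line was taken to vary as the other lines do. Dsg2 was not tested where the dimmest clusters were dropped.

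Over all clusters, quantile normalization raised the number that passed from 303 to 1915, 436 to 2325, 1009 to 3999, 765 to 4389 and 1383 to 4277 in the comparisons for α3 without and with α9, for α9 without and with α3, and of α3α9 with null, and from 20 to 172 in the interaction. Higher calls went from 817 of 1009 to 2062 of 3999 in α9 minus null. Of 61 calls of other genes, 19 held under each alternative listed for the deposited scale and under quantile normalization, and 42 were lost without at least 1 array; none reversed. Exon arrays give no depth, and Dsc2, Dsg2 and Pkp2 lay near or below the median signal.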
